A study of Arabidopsis thaliana with 6 samples.

Results

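Expansins and xyloglucan endotransglucosylase/hydrolases (XTH) are families of plant cell wall proteins, and some of their members loosen the wall of growing cells. Their transcripts were followed in sorted Arabidopsis thaliana root cells in G2/M and in whole root meristems. The members were chosen by locus code, as the expansin and XTH families, and not by their values. Of 60 listed loci, 25 had a probe set (the set of array probes that reports a transcript) annotated to exactly 1 gene. They comprised 15 of 27 expansins and 10 of 33 XTH genes, among 13286 genes with such a probe set in the series. The other 35 loci were not analysed here.

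The series holds 6 Affymetrix arrays, 3 per group, all of accession Col-0 and all stated to be biological replicates. The sorted group was made of cells taken by fluorescence-activated cell sorting from roots with a CYCB1;1-GFP reporter, a mitotic cyclin fused to green fluorescent protein. The meristem group was made of complete meristems cut from roots under a binocular microscope. The labels do not say whether the dissected roots carried the reporter, and they give no plant age. All plants grew on vertical plates of solid medium with sucrose. Cell state and handling (sorting or dissection) differ together between the groups and cannot be told apart.

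In a growing wall, cellulose microfibrils lie in a matrix of pectin and of xyloglucan, a glucan that binds to cellulose. Alpha-expansins (EXPA) and beta-expansins (EXPB) let the wall yield at acidic pH without cutting its polymers. The expansin-like proteins (EXLA, EXLB) share their fold, and no loosening activity is established for them. XTH enzymes cut a xyloglucan chain and join the cut end to another chain or, in some members, to water. In roots, dividing cells of the meristem grow slowly, cells that leave it elongate fast, and root hairs later grow out from epidermal cells.

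The 6 measured mitosis markers (AUR1, AUR2, AUR3, BUBR1, TOPII and SCL28) were all higher in the sorted cells, by 1.86 to 2.73 log2, which matches the label of that group. In limma their adjusted p was 0.00338 to 0.0226, and 0.0539 to 0.130 with the replicate number as a block. CYCB1;1 itself was not analysed here. Arrays correlated at 0.996 to 0.997 within the meristems and at 0.967 to 0.989 within the sorted cells (Pearson's r across 22746 probe sets). Sorted replicate 1 stood apart. It was at least 1 log2 above every other array at 518 probe sets (2.28%), against 6 to 15 for each of the other 5 arrays. It also shared with the meristems a signal on the poly-A spike-in controls (medians of 5.64 to 7.22 log2), which was weak in sorted replicates 2 and 3 (2.78 and 3.04 log2).

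Levels are the authors' log2 values. The lowest value of the table, 2.27, is called the floor, and a level up to 2.77 is called near the floor. A gene is called expressed on an array where its level is above 3.71, the median of all tested values. Differences are the sorted mean minus the meristem mean on the log2 scale, with the standard error (SE) of the limma fit. Every adjusted p comes from limma with Benjamini-Hochberg adjustment across the 22746 tested probe sets. A difference counts as called where that p is under 0.05. Levels of different genes come from different probes and are not compared with each other; a rank of mean levels served only to choose some of the members given array by array.

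By these bounds 14 of the 25 genes were expressed on at least 1 array, 10 of them expansins and 4 XTH. Expression on all 6 arrays was seen for 8 genes, EXPA4, EXPA9, EXPA15, EXPA20, EXPB1, EXPB3, XTH19 and XTH27. EXLA1, EXLA2 and XTH16 were also expressed on all 3 meristem arrays, which made 11 there, and XTH18 on all 3 sorted arrays, which made 9 there. EXPA7 and EXPA18 were expressed on sorted replicate 1 and on no other array. Near the floor on all 6 arrays were 8 genes, against 37.8% of all probe sets. These were the alpha-expansin EXPA16, the beta-expansin EXPB2, the expansin-like EXLA3 and EXLB1, and XTH20, XTH26, XTH29 and XTH33, none with a level above 2.61. EXPA8, XTH21 and XTH32 lay between the bounds.

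**Figure D1:**
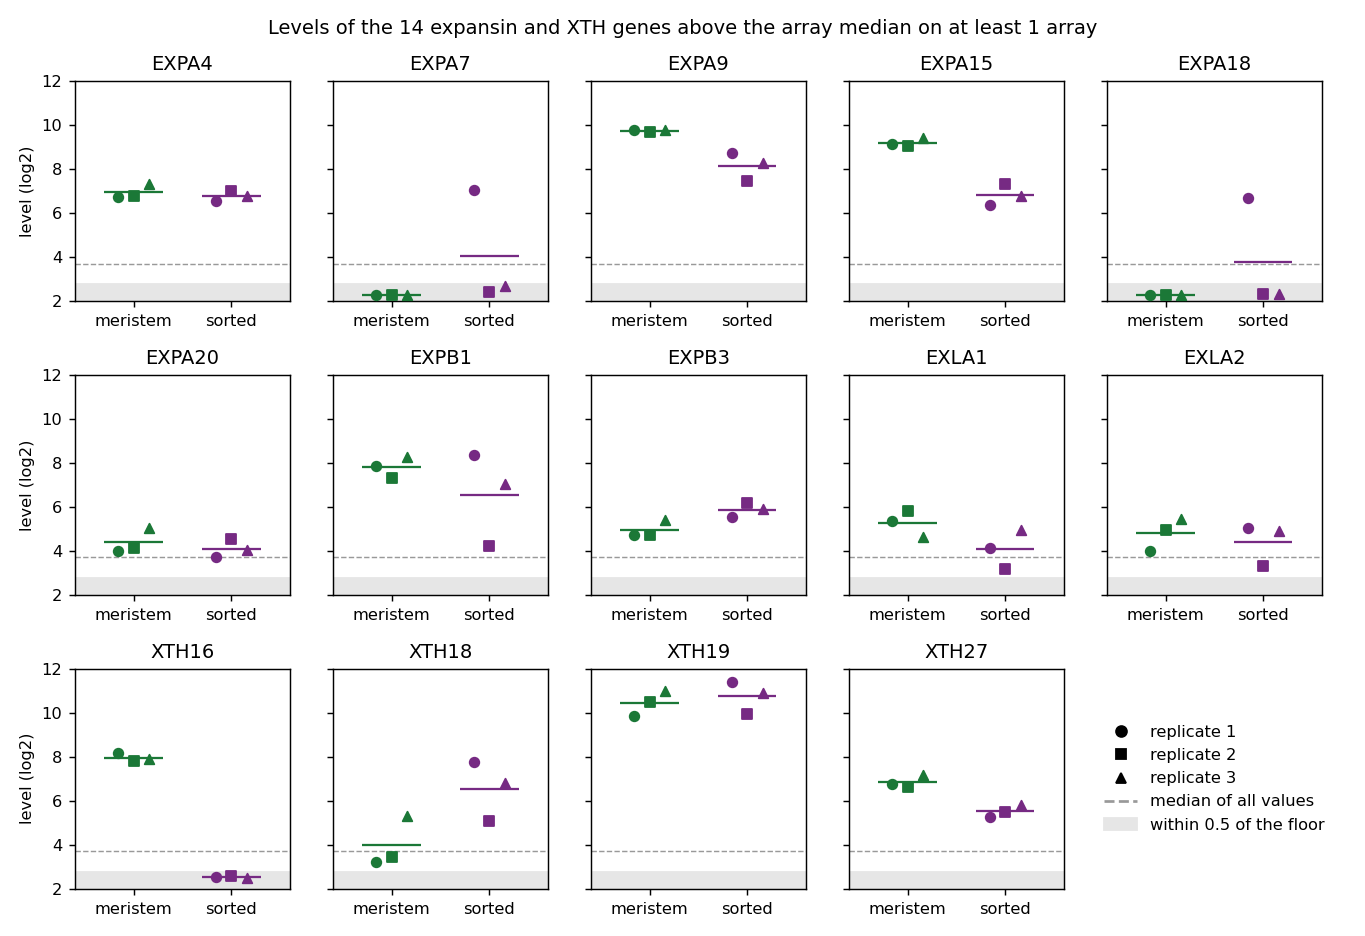
Levels (log2, y axis) of the 14 genes expressed on at least 1 array, in 3 meristem arrays (green) and 3 sorted arrays (purple); symbols give the replicate number, short bars the group means, the dashed line the median of all values and the grey band the levels within 0.5 of the floor. XTH16 lies at 7.79 to 8.19 in the meristems and at 2.50 to 2.58 in the sorted cells, while EXPA7 and EXPA18 leave the grey band only on sorted replicate 1.

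Between the groups, XTH16, EXPA15 and XTH27 fell in the sorted cells, and 22 of the 25 genes were not called in limma. A call was made for 11.5% of all probe sets (4.44% higher, 7.06% lower), so the members' share of calls was close to that of the array. None of the 25 was called higher, and at an unadjusted p under 0.05 the counts were 1 higher (EXPB3) and 4 lower (EXPA9 with the called genes). The groups did not overlap for 7 members, 3 higher and 4 lower, against 30.7% of all probe sets. Of the higher ones EXPA7 and EXPA18 were near the floor on sorted replicates 2 and 3 and on all meristems, and the other was EXPB3. The median difference was 0.00 log2 over the 25 members and over all probe sets, values set in part by genes at the floor. Over the 14 members expressed on at least 1 array it was -0.34 log2, with 9 lower and 5 higher. Over all probe sets expressed on at least 1 array it was 0.03 log2. EXPA7 and EXPA18 entered the 14 only through sorted replicate 1, and XTH16 only through the meristems. The filter therefore sets this split in part, and no conclusion is drawn from it. The labels give replicate numbers but do not say that they pair arrays across the groups. With that number as a block in limma 1 member, XTH16, was called lower and none higher, where 1.03% of all probe sets were called.

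The split of calls depended on the scale. Centring the arrays on 4 reference genes added 0.18 log2 to every difference, called 9 members higher and 4 lower, and moved the share of higher calls among all calls from 38.6% to 87.0%. Of all probe sets 57.4% were called higher and 8.60% lower under this scale. Of those 9 members 7 were near the floor on all arrays, and the others were EXPB3 and XTH18. EXPA16, EXLB1, XTH26 and XTH29 had no difference before centring, so their 0.18 log2 is the shift itself. XTH16, EXPA15, XTH27 and EXPA9 were the members called lower under this scale.

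**Figure D2:**
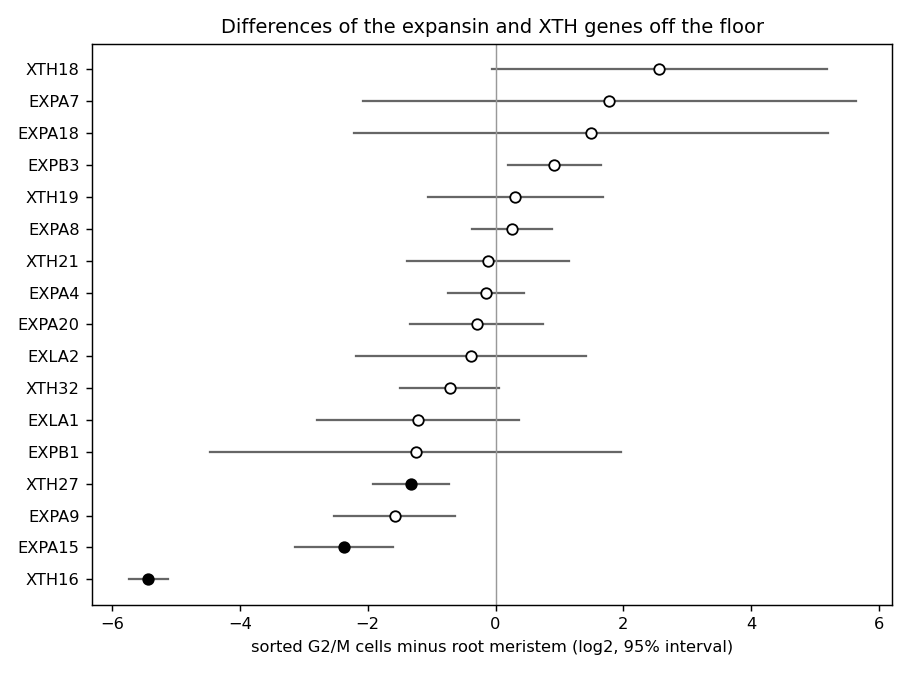
Difference between sorted G2/M cells and root meristem (x axis, log2) with its 95% interval from limma for the 17 genes above the near-floor bound on at least 1 array; filled points are called and open points are not. XTH16, EXPA15 and XTH27 are the called genes, and the widest intervals belong to EXPA7, EXPA18 and EXPB1.

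Among the XTH genes, XTH16 (AT3G23730) was expressed in every meristem and near the floor in every sorted array. Its level was 8.19, 7.79 and 7.91 log2 in meristem replicates 1, 2 and 3, and 2.53, 2.58 and 2.50 log2 in the sorted ones. The groups lay far apart, and each was narrow (7.96 ± 0.21 and 2.54 ± 0.04 log2, SD, n = 3 each). Against the near-floor bound of 2.77 XTH16 was at least 5.19 log2 lower in the sorted cells. The fitted difference between the deposited values was -5.43 log2 (SE 0.12, limma adjusted p = 6.25e-04), and its size and SE are set in part by the floor. It held its call in all 14 alternatives, including the replicate block (adjusted p = 0.0383). Among these, the lowest-mean probe set repeats the main fit, as no member had several. Taking arrays with and without the spike-in signal as blocks (the spike-in block) compares sorted replicate 1 alone with the meristems. In bulk RNA, fewer cells of a type and less RNA per cell cannot be told apart.

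XTH27 (AT2G01850, also named EXGT-A3), known from the veins of rosette leaves, stayed expressed in the sorted cells at a lower level. The meristems read 6.75, 6.64 and 7.16 log2 and the sorted arrays 5.25, 5.50 and 5.83 log2, with no overlap. It fell by 1.32 log2 (SE 0.22, limma adjusted p = 0.0322), or 2.50-fold. The call was lost without any 1 of the 6 arrays (adjusted p between 0.0583 and 0.110), with the replicate block (0.0682) and with a trended robust prior (0.0577). In the spike-in block, with sorted replicate 1 alone against the meristems, the difference was -1.60 log2.

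XTH18 (AT4G30280) and XTH19 (AT4G30290) are neighbours in the RefSeq gene order and belong to a group of XTH genes known for expression in roots. XTH18 read 3.24, 3.43 and 5.30 log2 in the meristems and 7.76, 5.08 and 6.82 log2 in the sorted cells. Meristem replicate 3 lay 1.87 log2 above the next meristem and above sorted replicate 2, so the groups overlapped. The difference of 2.56 log2 (SE 0.98, 95% interval -0.06 to 5.18) was not called in limma (adjusted p = 0.209; 0.0438 with the reference-gene scale and 0.00903 with array weights). XTH19 read 9.87, 10.47 and 10.98 log2 in the meristems and 11.40, 9.95 and 10.91 log2 in the sorted cells. Its groups overlapped, with a difference of 0.31 log2 (SE 0.51, 95% interval -1.05 to 1.68, adjusted p = 0.842). The neighbours kept the same order of arrays within each group: replicate 3 was highest and replicate 1 lowest in the meristems, and replicate 1 was highest and replicate 2 lowest in the sorted cells. This order was not particular to the pair, as EXLA2, which lies elsewhere, had it in both groups. The order of the sorted arrays alone was found in 20.6% of the 11061 probe sets expressed on all 3 meristem arrays. Whether the probes of XTH18 and XTH19 read each other's transcripts was not tested.

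The remaining XTH genes were below the bound for expression on all arrays. XTH21, known for a role in root growth, read 2.96, 2.44 and 3.66 log2 in the meristems and 3.48, 2.29 and 2.94 log2 in the sorted cells (difference -0.12 log2, SE 0.47, limma adjusted p = 1.00). XTH32 read 2.54, 3.47 and 3.37 log2 in the meristems and stayed near the floor in the sorted cells at 2.40, 2.54 and 2.30 log2. Its difference of -0.71 log2 (SE 0.29, adjusted p = 0.233) was called when meristem replicate 1 was left out (-1.01 log2, adjusted p = 0.0338). XTH20, XTH26, XTH29 and XTH33 did not vary by more than 0.05 log2 across the arrays.

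Of the alpha-expansins, EXPA15 (AT2G03090) was lower in every sorted array than in any meristem. It read 9.14, 9.04 and 9.42 log2 in the meristems and 6.37, 7.32 and 6.80 log2 in the sorted cells. It fell by 2.37 log2 (SE 0.28, limma adjusted p = 0.0147), or 5.17-fold. Between arrays of the same replicate number the differences were -2.77, -1.72 and -2.62 log2. The call was lost with the replicate block (adjusted p = 0.104) and without sorted replicate 3, meristem replicate 1, 2 or 3 (0.0656 to 0.0709).

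EXPA9 (AT5G02260) was likewise lower in every sorted array, with a wider spread there. Its meristem levels were 9.77, 9.67 and 9.78 log2 and its sorted levels 8.73, 7.48 and 8.27 log2, without overlap. The difference of -1.58 log2 (SE 0.35, 95% interval -2.52 to -0.64) missed the call in limma (adjusted p = 0.0643). It was called without sorted replicate 1 (0.0393) or 2 (0.0429), with the filter above the median (0.0107) and under 3 other scalings or weightings, and not with the replicate block (0.159).

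EXPA4 (AT2G39700) and EXPA20 (AT4G38210) were expressed on all arrays with no detectable difference. EXPA4 read 6.72, 6.80 and 7.31 log2 in the meristems and 6.55, 7.03 and 6.79 log2 in the sorted cells. Its difference was -0.15 log2 with a 95% interval of -0.74 to 0.44 (limma adjusted p = 0.786), and its sign turned, to 0.03 log2, without meristem replicate 3 and with the reference-gene scale. EXPA20 read 4.00, 4.15 and 5.05 log2 in the meristems and 3.72, 4.56 and 4.04 log2 in the sorted cells, where replicate 1 was just above the bound for expression. Its difference was -0.29 log2 with a 95% interval of -1.34 to 0.75.

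EXPA7 (AT1G12560) and EXPA18 (AT1G62980), the alpha-expansins known from root hair cells, were near the floor on 5 arrays and clearly expressed on sorted replicate 1. EXPA7 read 7.07, 2.42 and 2.69 log2 in sorted replicates 1, 2 and 3 and 2.27, 2.29 and 2.27 log2 in the meristems. EXPA18 read 6.67, 2.31 and 2.35 log2 in the sorted replicates, against 2.28 log2 in every meristem. Sorted replicate 1 thus led the next array by 4.38 log2 for EXPA7 and by 4.32 log2 for EXPA18. The next array was near the floor for both, so the size of these leads is set in part by the floor. In the deposited values they ranked first and second among the leads of that array, and 3 probe sets had a lead of at least 4 log2.

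The group differences of these genes rest on that array. They were 1.78 log2 for EXPA7 (SE 1.44, limma adjusted p = 0.595) and 1.50 log2 for EXPA18 (SE 1.38, adjusted p = 0.613). Without sorted replicate 1 they were 0.28 log2 (adjusted p = 0.171) and 0.05 log2 (0.120). Neither gene was called without that array. EXPA8 (AT2G40610) read 3.02 log2 on sorted replicate 1 and 2.27 to 2.30 log2 elsewhere. None of the 5 root hair markers chosen (RHD6, RSL4, LRX1, PRP3 and COBL9) was analysed here, so the part of hair cells in this signal was not tested. Among other named genes, the next leads of sorted replicate 1 were AT1G30870 (3.57 log2), AT3G49960 (3.46), AT2G41970 (3.45) and AT2G34910 (3.37). AT5G04960 (3.34 log2), AT5G38700 (3.24) and the glycosyl hydrolase GH9C1 (3.23) followed. Unlike EXPA7 and EXPA18, AT1G30870 and AT2G34910 were also expressed on sorted replicate 3 (5.17 and 6.06 log2).

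**Figure D3:**
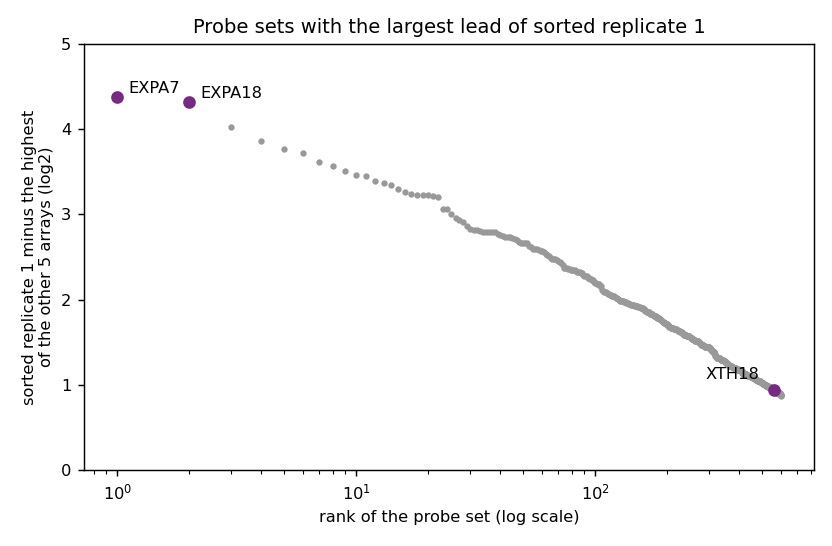
Lead of sorted replicate 1 over the highest of the other 5 arrays (y axis, log2) against the rank of the probe set (x axis, log scale) for the 600 largest leads; purple points are family members. EXPA7 (4.38 log2) and EXPA18 (4.32 log2), both near the floor on the other arrays, hold the first and second rank, and XTH18 (0.94 log2) is ranked 559.

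Neither expressed beta-expansin was called, and their differences had opposite signs. EXPB1 (AT2G20750) read 7.84, 7.30 and 8.26 log2 in the meristems and 8.38, 4.22 and 7.05 log2 in the sorted cells. Sorted replicate 2 lay 2.83 log2 under the next sorted array, while sorted replicate 1 was above every meristem. The difference was -1.25 log2 (SE 1.20, 95% interval -4.47 to 1.97, limma adjusted p = 0.613). It was -0.08 log2 without sorted replicate 2 and -2.16 log2 without sorted replicate 1. With the spike-in block, which compares sorted replicate 1 alone with the meristems, it was 0.58 log2.

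EXPB3 (AT4G28250) lay higher in all 3 sorted arrays than in any meristem. It read 4.74, 4.73 and 5.39 log2 in the meristems and 5.54, 6.16 and 5.92 log2 in the sorted cells, without overlap. The difference of 0.92 log2 (SE 0.27, 95% interval 0.19 to 1.65) was not called in limma (adjusted p = 0.121; 0.226 with the replicate block). It was called with the filter above the median (0.0301), the reference-gene scale (0.0114) and array weights (0.0068).

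Of the expansin-like genes, EXLA1 and EXLA2 varied within both groups. EXLA1 (AT3G45970) read 5.38, 5.84 and 4.65 log2 in the meristems and 4.12, 3.17 and 4.94 log2 in the sorted cells, and sorted replicate 3 lay above meristem replicate 3. Its difference was -1.21 log2 (SE 0.59, limma adjusted p = 0.316). EXLA2 (AT4G38400) read 3.99, 4.94 and 5.47 log2 in the meristems and 5.04, 3.31 and 4.91 log2 in the sorted cells, with overlapping groups (difference -0.38 log2, SE 0.67, adjusted p = 0.877). EXLA3, the neighbour of EXLA1 in the gene order, was near the floor on all arrays, as was EXLB1.

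The spread between replicates was taken over the 11 members expressed on all 3 meristem arrays, a choice in which no sorted array took part. Their root mean square SD (n = 3 arrays each) came to 0.84 log2 for the sorted cells, or 0.57 log2 without EXPB1, and to 0.45 log2 for the meristems. Over all 11061 probe sets expressed on those meristem arrays it was 0.40 and 0.18 log2. The SD was larger in the sorted cells for 7 of the 11 genes. It was widest there for EXPB1 (2.12 log2) and narrowest for XTH16 (0.04 log2), whose sorted level was near the floor.

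The order of the sorted arrays differed between members. Replicate 1 was highest and replicate 2 lowest for 4 of the 11 genes (EXPA9, EXPB1, EXLA2 and XTH19), an order found in 20.6% of the 11061 probe sets. The opposite order was found for 4 of the 11 (EXPA4, EXPA15, EXPA20 and EXPB3) and in 44.7% of the probe sets. All 6 mitosis markers had this opposite order. AUR2, for example, exceeded its meristem mean by 2.14, 2.81 and 2.47 log2 in sorted replicates 1, 2 and 3.

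**Figure D4:**
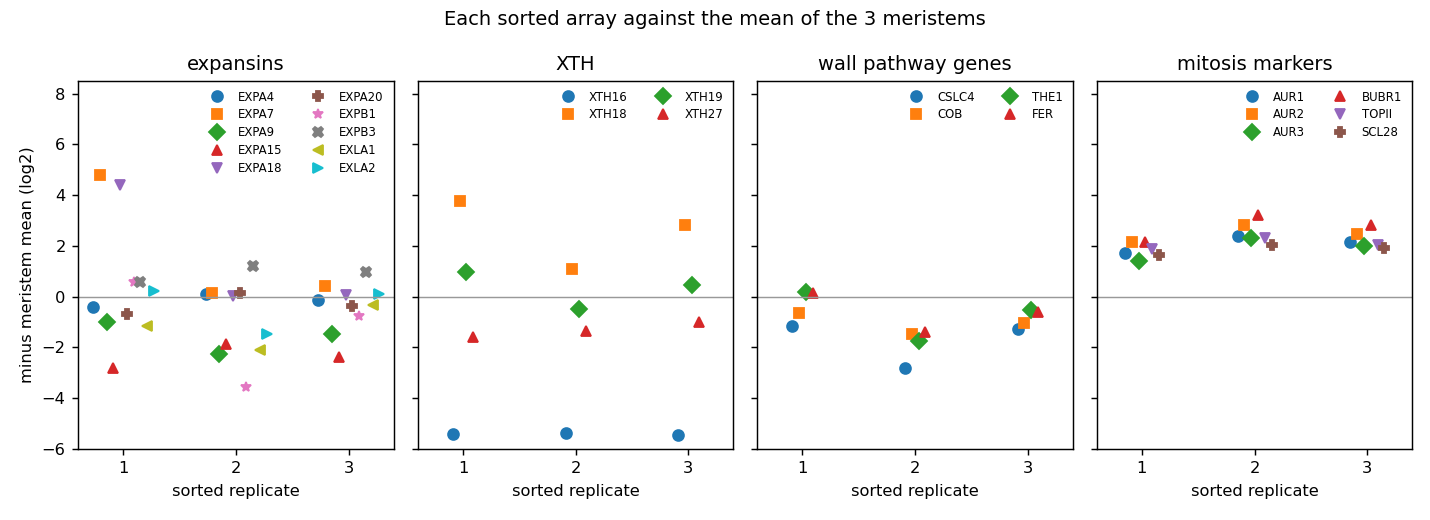
Level of each gene in each sorted array minus its mean over the 3 meristems (y axis, log2) by sorted replicate (x axis), for the 10 expressed expansins, the 4 expressed XTH genes, 4 wall pathway genes and 6 mitosis markers. XTH16 lies at -5.46 to -5.38 in all 3 arrays, EXPA7 at 4.79, 0.14 and 0.41, and every mitosis marker is highest in replicate 2.

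Of 28 listed genes that make, trim or sense the wall or acidify it, 4 were measured and none was called in limma, against 11.5% of all probe sets. At an unadjusted p under 0.05, 2 were lower and 0 higher. CSLC4, which makes the glucan backbone of xyloglucan, read 7.30, 7.56 and 7.48 log2 in the meristems and 6.29, 4.63 and 6.16 log2 in the sorted cells (difference -1.75 log2, SE 0.51, adjusted p = 0.121). COB, a membrane-anchored protein needed for oriented cellulose in growing roots, differed by -1.05 log2 (SE 0.23, adjusted p = 0.0612). For both, the groups did not overlap. The wall-sensing receptor kinases THE1 (-0.70 log2, SE 0.54, adjusted p = 0.569) and FER (-0.63 log2, SE 0.43, adjusted p = 0.495) were above the meristem mean in sorted replicate 1 (by 0.18 and 0.13 log2) and below it in replicates 2 and 3. In all 4 genes sorted replicate 1 was highest and replicate 2 lowest, an order found in 20.6% of the 11061 probe sets expressed on all meristem arrays. EXPA9, EXPB1, EXLA2 and XTH19 shared this order, while EXPA4, EXPA15, EXPA20 and EXPB3 had the opposite one.

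Markers of the cortex and of touch and wounding also differed between the groups. Both measured cortex markers fell with XTH16 and EXPA15: PEP by 4.52 log2 (limma adjusted p = 0.00512) and CO2 by 0.79 log2 (adjusted p = 0.0191). PEP was near the floor on sorted replicate 3 (2.54 log2), which limits how far its fall could be measured. With the replicate block the adjusted p was 0.0263 for PEP and 0.129 for CO2. The summed level of the pair was 4.11 to 4.42 log2 in the sorted arrays, against 7.31 to 8.01 log2 in the meristems. The 3 measured touch and wounding genes of 8 listed rose, the calmodulin-like CML38 by 5.14 log2, its relative CML37 by at least 2.86 log2 and the zinc finger STZ by at least 4.99 log2 (limma adjusted p = 0.00171, 0.00416 and 6.25e-04). CML37 and STZ were near the floor in all meristems, so their bounds are taken against 2.77. The summed level of all 3 genes, CML38 included, was 9.25 to 9.64 log2 in the sorted arrays, against 4.36 to 4.52 log2 in the meristems. With the replicate block CML37 was not called (adjusted p = 0.0569). The part of either in the wall-gene differences was not tested. Markers of root cap, epidermis, endodermis, stele and quiescent centre were not analysed here.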

How the data were processed

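Transcripts were measured in 3 arrays of sorted cells and 3 of root meristems. The deposited log2 values were made by the authors with GCRMA, per the submitters' processing notes (version not given in the sources used here), which corrects background, normalizes across arrays and sets a floor that hides differences between low genes. The table held 22810 probe sets, of which 64 controls were left out of the tests. In GEO's platform annotation 13513 of the 22746 tested probe sets had exactly 1 gene, and the loci of 13436 were found in RefSeq (TAIR10.1, names and gene order only). No build is named, so no coordinates are given, and no sequence was at hand. No member had more than 1 probe set.

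Groups were compared with limma 3.58.1 in R 4.3.3 (lmFit, eBayes, 0.391 prior and 4 residual degrees of freedom) on all 22746 probe sets, with no filter. The fit was tested on simulated data. Arrays have no read depth, and 3 per group limit the precision. Deviations from the group means correlated at 0.122, 0.249 and 0.106 between arrays with the same replicate number, over 11503 probe sets, and at -0.229 to 0.0502 between different numbers. The numbers were therefore taken as a possible pairing, which the labels do not state, and blocked values are given where a call changes.

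The members and lists were chosen with earlier results of these data known. Every array is given for called members, members with 1 array at least 1 log2 above the next of its group, members differing by at least 1 log2, and the 4 with the highest mean in each group; others off the floor were added for completeness after their values were seen. Alternatives were a filter above the median, a trended robust prior, array weights, the replicate block, a spike-in block, centring on expressed probe sets, the lowest-mean probe set, and each array left out. Centring on reference genes was added after the data were seen.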

Additional observations from a re-analysis of the deposited data

How the results depend on the processing

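The 11 members with every array given by rule were refitted under 14 alternatives, in 152 values. Direction and side of the threshold held in 124, a call was lost in 14 (EXPA15 and XTH27), a call was gained in 10 (EXPA7, EXPA9, EXPA18 and XTH18), and the sign turned in 4. The 124 include the lowest-mean probe set, which repeats the main fit for every member, so those values were fixed in advance. The gains of EXPA7 and EXPA18 came only with the spike-in block, which sets sorted replicate 1 alone against the meristems. The turned values were EXPA4 at 0.03 log2 without meristem replicate 3 and 0.03 log2 with reference-gene centring, EXPB1 at 0.58 log2 with the spike-in block, and XTH19 at -0.01 log2 without sorted replicate 1. None of the 4 was called. With 1 array left out EXPA4 ranged from -0.27 to 0.03 log2 and XTH19 from -0.01 to 0.72 log2.

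The 2614 called probe sets became 235 with the replicate block, 1249 with the trended prior, 9114 with array weights, 15022 with reference-gene centring, and 959 to 3383 with 1 array left out. The array weights did not converge and gave sorted replicate 3 a weight of 16.2, so those counts lean on 1 sorted array. Members called higher, 0 in the report, were 4 with array weights, 9 with reference-gene centring, 3 with the spike-in block, 1 of 12 tested with the filter above the median, and 0 in every fit with 1 array left out. The share of all tested probe sets called higher was 22.1%, 57.4%, 7.17% and 14.3% in the first 4 of these. In the spike-in block every difference sets sorted replicate 1 alone against the meristems. Its calls therefore hold no spread between that array and the other sorted ones. The 3 members called higher there (EXPA7, EXPA8 and EXPA18) were near the floor in the meristems. Members called lower, 3 in the report, were 5 with array weights (18.0% of all probe sets), 1 with the replicate block (0.686%) and 1 to 3 with 1 array left out (2.8% to 7.17%). Of the 4 wall pathway genes, 0 were called lower in the report. With array weights 3 were (18.0% of all tested probe sets), and 1 with centring on expressed probe sets (8.19%). Reference-gene centring gave 2 (8.6%), the filter above the median 2 (17.8%), and leaving 1 array out 0 to 1 (2.8% to 7.17%). The cause was not tested. The lowest-mean probe set gave the same values, as no member had several.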
